A study of Malus domestica with 9 samples.

Results

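The enzymes that carry the anthocyanin pathway from flavanones to the finished red pigment were followed at 6 apple loci during the first day of light on unbagged fruit. The loci were the rows of the deposited expression table whose identifiers are listed as flavanone 3-hydroxylase (F3H, gene:MD02G1132200 and gene:MD15G1246200), dihydroflavonol reductase (DFR, gene:MD15G1024100), anthocyanidin synthase (ANS, gene:MD06G1071600) and flavonoid 3-O-glycosyltransferase (UFGT, gene:MD01G1234400 and gene:MD07G1306900). All 6 were present, of 46558 genes in the table. They were chosen by enzyme name, with earlier results of these data known. The names come from the list that defines the set, since the table itself pairs no identifier with a function. The prefix "gene:" is left out from here on.

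RNA came from the fruit peel of Malus domestica grown in bags, taken at 0 h, 6 h or 24 h of light after the bags were removed. Each time had 3 libraries, which the submitters call biological replicates, so there were 9 libraries in all. The labels name no cultivar and do not say whether a replicate was 1 fruit, 1 tree or a pool, and the p-values therefore measure the spread between these libraries. No group here is of peel kept in bags to 6 h or 24 h, so light, bag removal and, for 6 h, time of day cannot be told apart.

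Anthocyanins are the red pigments of apple skin, and bagged fruit stays pale until light reaches the peel. F3H hydroxylates flavanones to dihydroflavonols, DFR reduces these to colourless leucoanthocyanidins, ANS oxidises those to coloured anthocyanidins, and UFGT attaches a sugar that stabilises the pigment so that it can be stored in the vacuole. The products of F3H also feed flavonol synthesis, and those of DFR and ANS also feed proanthocyanidin synthesis. In apple the structural genes of this pathway are known targets of the R2R3-MYB factor MYB10 (also called MYB1), whose own expression responds to light.

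Levels are in FPKM, by definition fragments counted per kilobase of a gene's transcript in each M (mega) of mapped fragments. They can therefore be compared between genes. What was counted in the denominator is not stated, and reads in genes exceeded it in every 24 h library. The FPKM values resolved into whole reads, 15.3 to 19.5 M in genes per library, and the 6 loci had gene lengths of 1300 to 1904 bases. The weakest value rested on 68 reads and the strongest on 43948. The identifiers of genes other than these 6 have no names in the sources used here, so neither the rest of the pathway nor peel marker genes were read out. Loci with near-identical sequence may have shared reads, and the handling of such reads is not stated. In the 24 h group the third library lay apart. Its reads differed from those of the other 24 h libraries by a chi-square of 31.8 and 32.6 per degree of freedom, against 2.50 between those others and 3.62 to 7.04 within the other times. It was above both other 24 h libraries at all 6 loci, and the 24 h results are also given without it.

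All 6 loci rose over the day. At 24 h each was called higher than at 0 h and higher than at 6 h, and at 6 h 4 of the 6 were called higher than at 0 h. A call needed an adjusted p under 0.05 in limma over the 25362 tested genes and a difference of at least 1 in log2(FPKM + 1). Of the tested genes, 11.9% were called higher at 24 h than at 0 h, 8.66% at 24 h than at 6 h, and 9.36% at 6 h than at 0 h. In all, 6.22% were called higher at 24 h than at both earlier times, as all 6 loci were, and 0.863% were called higher in all 3 comparisons, as 4 of the loci were. The moderated F-test of limma for any change over the 3 times, which all 6 passed, was passed by 72.7% of the tested genes. At every locus the libraries of the 3 times did not overlap, which was also common: 35.8% of the tested genes were higher without overlap at 6 h than at 0 h, 34% at 24 h than at 0 h and 30.8% at 24 h than at 6 h. The median log2 difference of the 6 loci was 4.82 for 24 h against 0 h, where that of all tested genes was 0.0039. For 24 h against 6 h the medians were 2.98 and -0.0054, and for 6 h against 0 h they were 1.39 and 0.011. FPKM give a level relative to the fragments of the library, so the absolute amount of a transcript per peel sample was not measured. A higher relative level can mean, among other readings, more RNA per cell or more cells that express it. These cannot be told apart in bulk tissue.

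**Figure D1:**
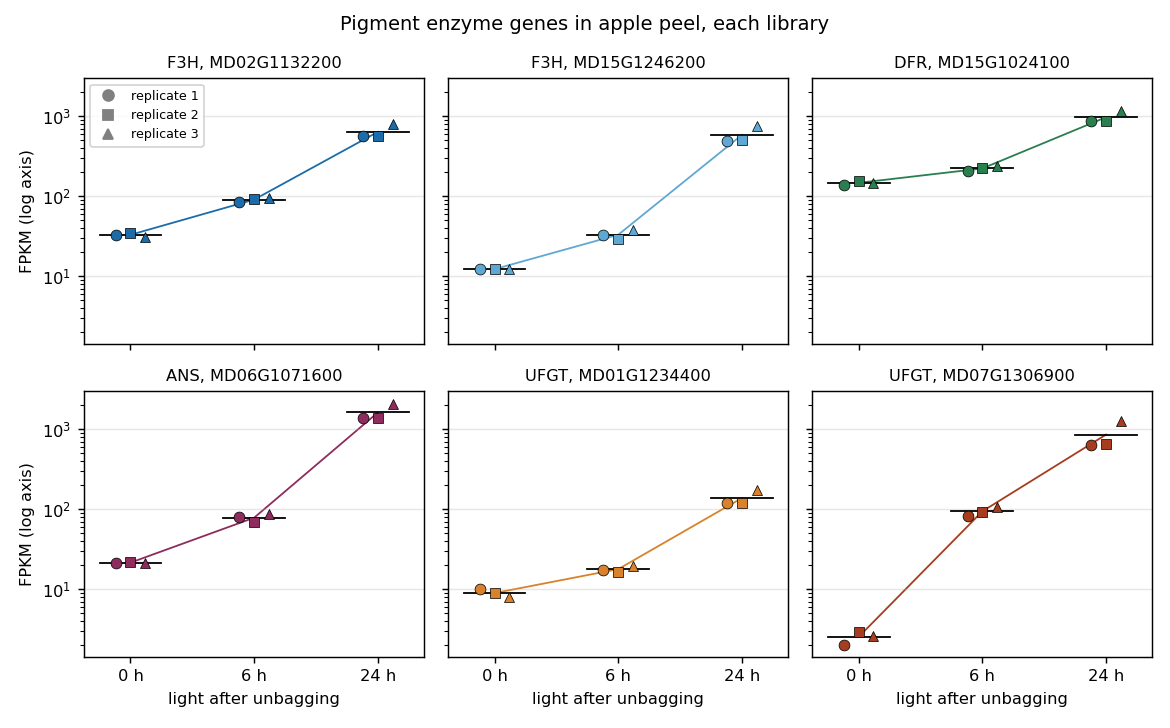
FPKM of the 6 loci (log axis) in each library at 0 h, 6 h and 24 h of light; symbols mark the replicate, horizontal bars the mean of 3 libraries, and lines join the means. Each locus has its 3 highest values at 24 h, from 119 FPKM in UFGT MD01G1234400 to 2093 FPKM in ANS MD06G1071600, and the third 24 h library is the highest throughout.

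F3H opens this part of the pathway, and both of its loci rose at each step. MD02G1132200 stood at 32.9, 34.7 and 31.0 FPKM at 0 h, at 84.5, 93.4 and 93.9 FPKM at 6 h, and at 557, 558 and 792 FPKM at 24 h. The times did not overlap, and the third 24 h library was the highest of the 9. At 6 h its mean was 2.76 times that at 0 h (log2 difference 1.43, SE 0.136, limma adjusted p = 1.2e-05). At 24 h it was 19.3 times the 0 h mean (log2 difference 4.21, SE 0.136, limma adjusted p = 3.92e-09).

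The other F3H locus, MD15G1246200, began lower and was still the lower of the F3H loci in every 24 h library, by a smaller ratio. Its 0 h libraries had 12.2, 12.3 and 12.3 FPKM, its 6 h libraries 32.3, 28.7 and 37.8 FPKM, and its 24 h libraries 488, 501 and 761 FPKM. The 0 h libraries were nearly identical, and no value of a later time reached down to them. The fold at 6 h over 0 h was 2.69 (log2 difference 1.35, SE 0.163, limma adjusted p = 6.83e-05), close to that of MD02G1132200. The 24 h mean was 17.7 times the 6 h mean (log2 difference 4.08, limma adjusted p = 2.38e-08), against 7.02 times in MD02G1132200 (log2 difference 2.78, limma adjusted p = 9.34e-08).

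The share of MD15G1246200 in the summed FPKM of both F3H loci was 27.1 ± 1.11% at 0 h, 26.6 ± 2.73% at 6 h and 47.7 ± 1.2% in the 24 h libraries (SD, n = 3 for each time). It was between 46.7% and 49.0% in every 24 h library and at most 28.7% in every earlier one. The log2 ratio of MD02G1132200 to MD15G1246200, on FPKM + 1, averaged 0.13 ± 0.069 at 24 h, against 1.35 ± 0.078 at 0 h (SD, n = 3 for both). Over the 3 times this ratio differed at p = 0.025 in an exact permutation test of the F statistic over all assignments of the libraries (n = 3 per time, 0.025 after Benjamini-Hochberg adjustment over the 2 copy ratios tested). The smallest p that test can give is 0.00357. The summed level of both F3H loci was 45.1 ± 1.85 FPKM at 0 h and 124 ± 7.59 FPKM at 6 h, and the 24 h libraries averaged 1220 ± 289 FPKM (SD, n = 3 for each time).

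DFR, which makes the leucoanthocyanidins, started from the highest level and had the smallest fold of the 6 in each comparison. MD15G1024100 had 138, 155 and 147 FPKM at 0 h, 205, 223 and 238 FPKM at 6 h, and 869, 875 and 1166 FPKM at 24 h. Every 6 h library was above every 0 h library, but the 6 h mean was only 1.51 times the 0 h mean. Its log2 difference of 0.59 (SE 0.137, 95% interval 0.29 to 0.90, limma adjusted p = 0.00465) passed the p threshold and stayed under the size limit, so it was not called. Such a difference was common at 6 h: 17.5% of the tested genes had a larger one, and 27.9% were higher at an adjusted p under 0.05 alone. At 24 h DFR was 6.62 times its 0 h mean (log2 difference 2.71, limma adjusted p = 9.63e-08) and 4.37 times its 6 h mean (log2 difference 2.11, limma adjusted p = 7.1e-07).

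ANS, the enzyme that forms the coloured anthocyanidins, reached the highest level of the set. MD06G1071600 was at 21.3, 21.9 and 21.2 FPKM at 0 h, at 79.0, 69.8 and 86.0 FPKM at 6 h, and at 1382, 1377 and 2093 FPKM at 24 h. The groups did not overlap, and the 0 h values lay within a CV of 1.67%. The 6 h mean was 3.65 times the 0 h mean (log2 difference 1.81, SE 0.157, limma adjusted p = 6.57e-06). At 24 h it was 75.4 times the 0 h mean (log2 difference 6.14, limma adjusted p = 1.11e-09), and 18 tested genes had a larger difference in that comparison. The 24 h mean was 20.7 times the 6 h mean (log2 difference 4.33, limma adjusted p = 1.34e-08), the largest difference of the 6 loci between these times.

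**Figure D2:**
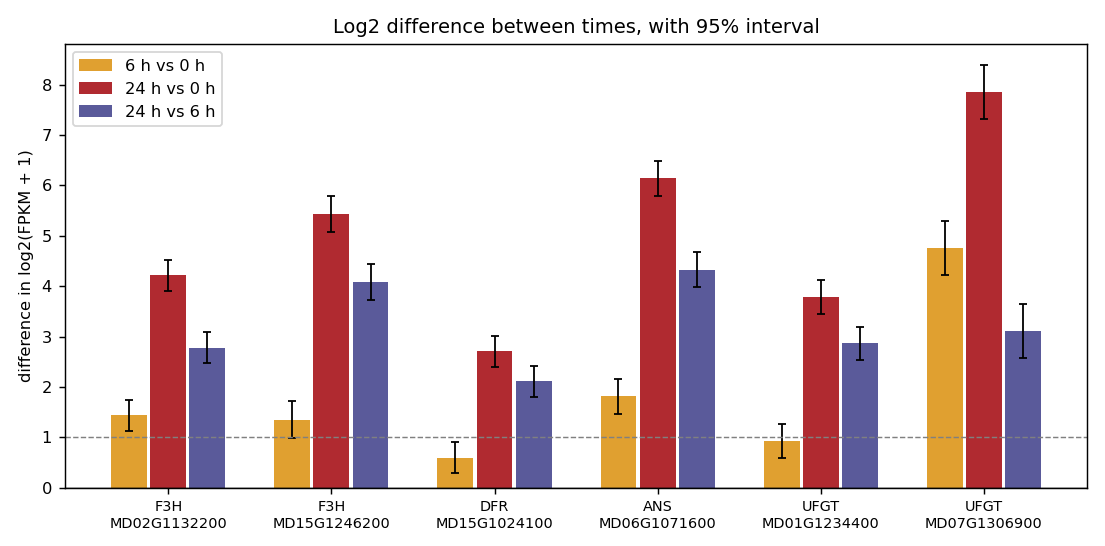
Differences in log2(FPKM + 1) between times for each locus from the limma fit to all 9 libraries, with 95% intervals; the dashed line marks the size limit of 1 for a call. At 6 h against 0 h DFR MD15G1024100 (0.59) and UFGT MD01G1234400 (0.92) lie under the limit, and UFGT MD07G1306900 (4.75) stands above the rest; all bars for 24 h exceed 2.

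UFGT closes the pathway, and its loci had very different courses. MD07G1306900 was the lowest of the 6 at 0 h, with 2.02, 2.94 and 2.63 FPKM, and then had 82.4, 92.1 and 107.5 FPKM at 6 h and 642, 648 and 1278 FPKM at 24 h. The third 24 h library was far above the other 24 h libraries, and the times did not overlap. The 0 h values rested on 68, 104 and 80 reads, and the exact Poisson 95% interval of the first ran from 1.57 to 2.56 FPKM, which covers counting error only. At 6 h the mean was 37.1 times the 0 h mean (log2 difference 4.75, SE 0.240, limma adjusted p = 1.63e-07), and 70 tested genes had a larger difference. At 24 h it was 338 times the 0 h mean (log2 difference 7.85, SE 0.240, limma adjusted p = 3.05e-09), with 2 tested genes above it. Relative to 6 h the 24 h mean was 9.11 times as high (log2 difference 3.10, limma adjusted p = 2.62e-06). The pseudocount of 1 shrinks the log2 differences against the low 0 h level.

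MD01G1234400, the other UFGT locus, had a smaller rise at 6 h than MD07G1306900. It had 9.97, 8.94 and 7.92 FPKM at 0 h, 17.6, 16.4 and 19.4 FPKM at 6 h, and 120, 119 and 175 FPKM at 24 h. The values at 6 h were all above those at 0 h, and their mean was 1.99 times the 0 h mean, with a log2 difference of 0.92 (SE 0.150, 95% interval 0.59 to 1.26, limma adjusted p = 0.00052). That lies under the size limit, so it was not called, and 10.4% of the tested genes had a larger difference. At 24 h it was 15.4 times the 0 h mean (log2 difference 3.79, limma adjusted p = 1.63e-08) and 7.74 times the 6 h mean (log2 difference 2.86, limma adjusted p = 1.51e-07).

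Of the summed FPKM of both UFGT loci, MD07G1306900 gave the smaller part at 0 h and most at both later times. Its share was 22.2 ± 4.62% at 0 h and 84.0 ± 1.4% at 6 h, and 85.6 ± 2.07% in the 24 h libraries (SD, n = 3 for each time). No 0 h library exceeded 24.9%, and no later one was under 82.4%. The log2 ratio of MD01G1234400 to MD07G1306900, on FPKM + 1, was 1.5 ± 0.315 at 0 h and -2.33 ± 0.145 at 6 h, and -2.57 ± 0.253 in the 24 h libraries (SD, n = 3 for each time). It differed over the 3 times at p = 0.00714 in the exact permutation test (n = 3 per time, 0.0143 after adjustment over the 2 copy ratios). The mean UFGT ratio differed by -3.83 log2 units between 6 h and 0 h and by -0.24 between 24 h and 6 h. In F3H the corresponding differences were 0.084 and -1.31 log2 units. They were not tested one by one, because 3 libraries against 3 cannot reach a two-sided p of 0.05 in such a test.

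**Figure D3:**
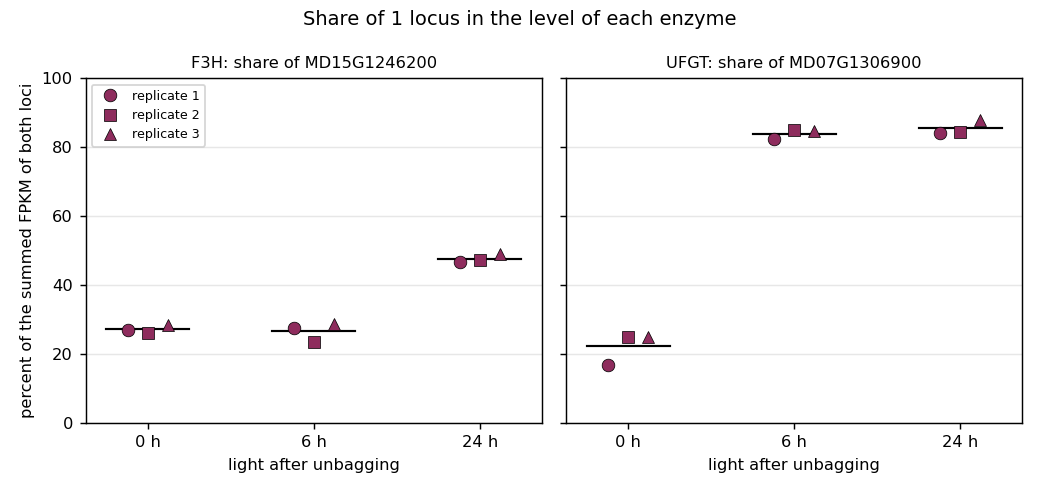
Share (percent) of MD15G1246200 in the summed FPKM of both F3H loci (left) and of MD07G1306900 in that of both UFGT loci (right), per library at 0 h, 6 h and 24 h, with the mean as a horizontal bar. The F3H share lies between 23.5% and 28.7% up to 6 h and between 46.7% and 49.0% at 24 h, while the UFGT share is at most 24.9% at 0 h and at least 82.4% at 6 h and 24 h.

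The part of the rise that was present at 6 h set UFGT MD07G1306900 apart on the log2 scale. This locus had made 60.5% of its difference between 24 h and 0 h by 6 h. The others had made 21.9% in DFR, 24.4% in UFGT MD01G1234400, 24.8% in F3H MD15G1246200, 29.5% in ANS and 34.0% in F3H MD02G1132200. In FPKM themselves, with all 9 libraries, the part was highest at 10.7%, again in MD07G1306900, and it was 3.56% in ANS. On that scale F3H MD02G1132200 at 9.57% and DFR at 9.15% lay close to the highest. These percentages come from the means of 3 libraries and were not tested against each other.

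The order of the levels changed with time. At 0 h it was DFR, F3H MD02G1132200, ANS, F3H MD15G1246200, UFGT MD01G1234400 and UFGT MD07G1306900, and no neighbours overlapped in their libraries. At 6 h DFR still led without overlap. UFGT MD07G1306900, F3H MD02G1132200 and ANS followed with means of 94.0, 90.6 and 78.3 FPKM and overlapped in their libraries, and F3H MD15G1246200 and UFGT MD01G1234400 came last. At 24 h ANS led with 1617 ± 412 FPKM (SD, n = 3), above every library of DFR at 970 ± 170 FPKM (SD, n = 3). With all 3 libraries DFR overlapped UFGT MD07G1306900 at 856 ± 365 FPKM (SD, n = 3), which overlapped F3H MD02G1132200 at 636 ± 135 FPKM (SD, n = 3), and this overlapped F3H MD15G1246200 at 584 ± 154 FPKM (SD, n = 3). UFGT MD01G1234400 was below all the others at 138 ± 32.0 FPKM (SD, n = 3). The overlaps rest on the third 24 h library: without it the order was the same and no neighbours overlapped. Within single libraries, UFGT MD07G1306900 was above F3H MD02G1132200, and this above F3H MD15G1246200, in 3 of 3 at 24 h, while DFR was above UFGT MD07G1306900 in 2 of 3.

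Set against the whole transcriptome, 5 of the 6 loci were among the 90 highest genes of the table by mean FPKM at 24 h. ANS ranked 23rd, DFR 37th, UFGT MD07G1306900 46th and the F3H loci 78th and 90th, while UFGT MD01G1234400 ranked 836th. At 0 h DFR ranked 564th, and the places of the others ran from 3428 for F3H MD02G1132200 to 20984 for UFGT MD07G1306900. As a share of the FPKM of all genes, the 6 loci together held 0.0339 ± 0.00109% at 0 h and 0.0799 ± 0.00584% at 6 h, and 0.625 ± 0.0820% in the 24 h libraries (SD, n = 3 for each time). In the 24 h libraries that share was 0.576%, 0.579% and 0.720%.

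**Figure D4:**
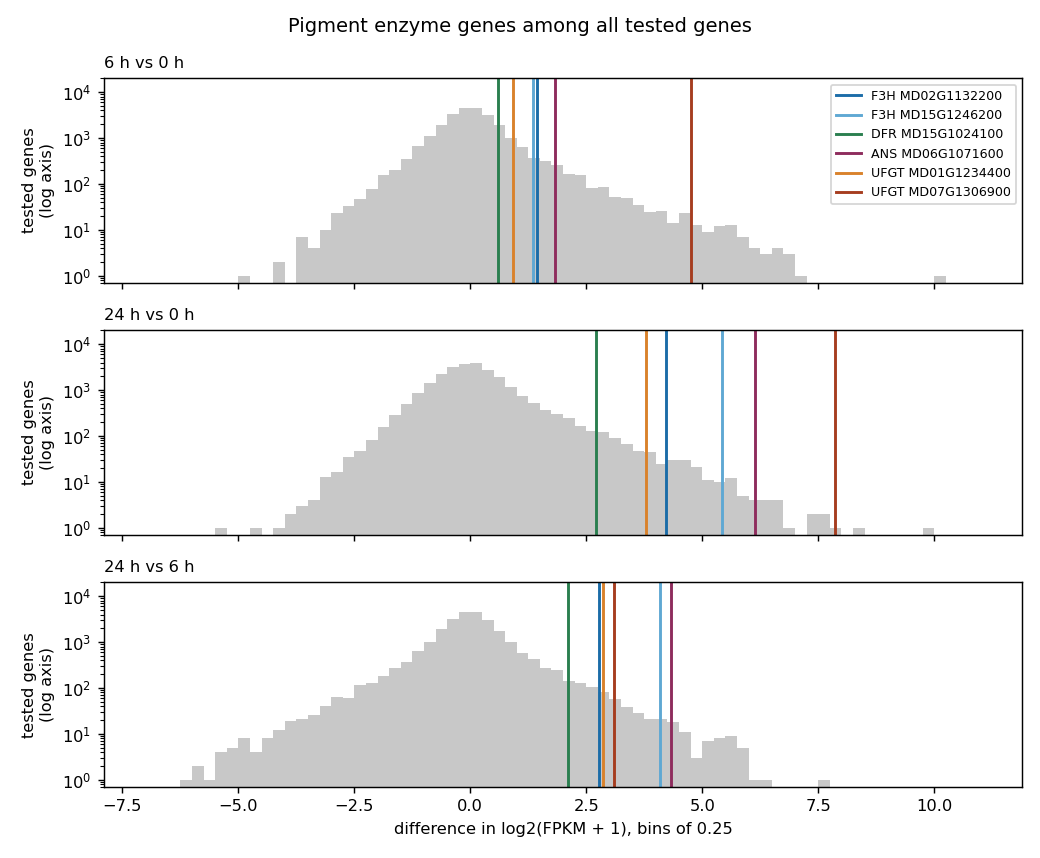
Number of tested genes (log axis) by their difference in log2(FPKM + 1) for 6 h against 0 h, 24 h against 0 h and 24 h against 6 h, with the 6 loci as vertical lines. In 24 h against 0 h the lines run from 2.71 (DFR) to 7.85 (UFGT MD07G1306900), to the right of the 95th percentile of all tested genes at 1.84.

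The third 24 h library was 1.34 to 1.98 times the mean of the other 24 h libraries at the 6 loci, least in DFR and most in UFGT MD07G1306900. Over all tested genes the median of that ratio was 1.02, on FPKM + 1. Its reads in genes were 1.21 times the denominator of its FPKM, against 1.02 and 1.03 in the other 24 h libraries. That ratio rose with time, from 0.911 to 0.941 at 0 h and 0.961 to 0.985 at 6 h. The summed FPKM of the third 24 h library was the highest. The part that these features have in the high values of that library was not tested. Without that library the folds for 24 h over 0 h were 17.0 in F3H MD02G1132200, 40.5 in F3H MD15G1246200, 5.95 in DFR, 64.3 in ANS, 13.3 in UFGT MD01G1234400 and 255 in UFGT MD07G1306900. The folds for 24 h over 6 h were then 6.16, 15.0, 3.93, 17.6, 6.70 and 6.86 in the same order of loci, and the 24 h means were 558, 495, 872, 1380, 119 and 645 FPKM. Every call at 24 h held without it, with log2 differences of 2.57 to 7.52 against 0 h and 1.97 to 4.13 against 6 h (highest limma adjusted p = 2.42e-08). The F3H copy ratio then differed over the times at p = 0.025 and the UFGT copy ratio at p = 0.0214 in the exact permutation test of 8 libraries, and the 24 h shares were 47.0% for F3H MD15G1246200 and 84.4% for UFGT MD07G1306900. The remaining descriptions were recomputed without it after the data had been seen. ANS then ranked 23rd at 24 h, DFR 35th, UFGT MD07G1306900 58th, the F3H loci 76th and 97th, and UFGT MD01G1234400 910th. The part of the log2 rise present at 6 h was then 63.1% in UFGT MD07G1306900 and 23.1% to 35.5% in the others. The closest pair of loci and the one furthest apart were the same as those given next for all libraries, at 0.25 and 2.19, and so were the 2 other genes most alike and the 2 most opposed in course. The scale matters in the same way: with every library brought to equal summed FPKM, the median over the tested genes shifted by -0.16 log2 units for 24 h against 0 h. The calls at the 6 loci held there with differences of 2.52 to 7.68, and 9.84% of the tested genes were then called higher. Of all called genes in that comparison 48.0% were then higher, against 60.03% on the deposited scale.

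The loci differed in how alike their courses were. Likeness was taken as the root mean square difference in log2(FPKM + 1) over the 9 libraries after centring each gene on its own mean, and it is a description, since the libraries fall into 3 times. The closest pair was F3H MD02G1132200 with UFGT MD01G1234400, at 0.24, followed by F3H MD15G1246200 with ANS, at 0.29. Of 14212 other genes that averaged 10 FPKM or more at some time, 19 were closer to F3H MD02G1132200 than UFGT MD01G1234400 was. To F3H MD15G1246200, 7 were closer than ANS. The F3H loci differed from each other by 0.61 and the UFGT loci by 1.87. Closer than the other locus of the same enzyme were 199 other genes to F3H MD02G1132200 and 11410 to UFGT MD01G1234400. The pair furthest apart was DFR and UFGT MD07G1306900, at 2.24.

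Among 14212 other genes that averaged 10 FPKM or more at some time, MD03G1073700 was closest to the mean course of the 6 loci, at 0.15. Its levels over the 3 times, from 0 h to 24 h, were 21.1 ± 2.53, 76.1 ± 8.15 and 667 ± 228 FPKM (SD, n = 3 each). MD10G1176000 came next at 0.18, with 2.45 ± 0.426, 11.7 ± 1.19 and 92.7 ± 19.9 FPKM (SD, n = 3 each). The course nearest to the mirror image was that of MD03G1214100, at 25.2 ± 2.23, 6.55 ± 0.474 and 1.03 ± 0.138 FPKM (SD, n = 3 each), with a root mean square difference of 0.64 from it. MD14G1014200 followed at 0.68, with 43.4 ± 6.63, 10.2 ± 4.74 and 2.0 ± 0.475 FPKM (SD, n = 3 each). These genes were chosen for their likeness, so their differences carry no test, and the sources used here give them no function.

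The genes with adjacent identifiers were described in the same way. Of the 60 genes listed 5 places before and after each locus, 36 were tested. At 24 h against 0 h, 3 of these were called higher and 1 lower, beside 11.9% called higher and 7.9% called lower over all tested genes. Of the 3, 2 were adjacent to DFR MD15G1024100 and 1 to UFGT MD07G1306900, and the lower one was also adjacent to DFR, at -1.47 log2 units. At 6 h against 0 h the 1 call among the 36 was a lower one, again adjacent to DFR, beside 6.17% called lower over all tested genes. The highest difference among the genes adjacent to DFR was 2.01 log2 units, and among those adjacent to UFGT MD07G1306900 it was 2.82. At 24 h against 6 h 3 of the 36 were called higher, beside 8.66% over all tested genes. The order is that of the identifiers, and positions on the chromosomes were not used here.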

How the data were processed

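Apple peel RNA at 0 h, 6 h and 24 h of light was sequenced in 9 libraries, grouped by their titles. Per the labels, total RNA came from a Trizol extraction, followed by a standard Illumina mRNA library. The authors deposited 1 FPKM value per gene and library, per the file headers. HISAT2 and Cufflinks are named in the submitters' processing notes, with no version. For genome build, annotation, filters and strandedness the sources used here give nothing. Of 51804 genes in the RefSeq table at hand, 0 shared an identifier with the deposited table, so no coordinates, sequences or other gene names are given and the planned list of further pathway genes was not run.

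FPKM values became whole reads in 37142 of 37142 genes above 0 (tolerance 0.02 reads). Tests used limma 3.58.1 (R 4.3.3) on log2(FPKM + 1), on the 25362 genes that averaged 1 FPKM or more, with all 9 libraries in 1 model with a mean per time, an intensity trend and Benjamini-Hochberg adjustment over all tested genes. All 6 loci passed the filter. Copy ratios were tested by exact permutation. The read recovery and the limma fit were tested on simulated data. The 6 loci were all named, and of other genes the 2 most alike and the 2 most opposed in course. Loci and lists were chosen with earlier results of these data known. Other pseudocounts, filters, scalings, a fit without trend, fits to 2 times, a replicate block, limma-voom and left-out libraries were tried.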

Additional observations from a re-analysis of the deposited data

Results flagged for a closer look

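At all 6 loci the 24 h change from the start differed from the 6 h change, judged by the limma comparison of 24 h with 6 h, in which 8.66% of the tested genes were called higher. The log2 differences were 2.78 in F3H MD02G1132200, 4.08 in F3H MD15G1246200, 2.11 in DFR MD15G1024100, 4.33 in ANS MD06G1071600, 2.86 in UFGT MD01G1234400 and 3.10 in UFGT MD07G1306900. Each was higher in 3 of 3 libraries at 24 h than in any library at 6 h, as were 30.8% of the tested genes.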

How the results depend on the processing

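The calls at the 6 loci were the same in number under all 19 alternatives to each comparison of times, with 4 called at 6 h against 0 h and 6 in both comparisons of 24 h, also when each library was left out in turn. In the fit described above, 9.36% of the tested genes were called higher at 6 h than at 0 h. For 24 h the shares were 11.9% against 0 h and 8.66% against 6 h. All 6 loci changed over the 3 times by the moderated F-test in 18 alternatives, a test that 72.7% of the tested genes passed in that fit. DFR at 6 h ranged from 0.51 to 0.65 log2 units and UFGT MD01G1234400 from 0.71 to 0.995, always under the size limit. UFGT MD07G1306900 at 6 h against 0 h, 4.75 log2 units, was 3.71 at a pseudocount of 5, 5.17 at 0.1 and 5.21 by limma-voom. A pseudocount of 5 lowered the counts over all genes to 2046, 2697 and 2398, in place of 3939, 5014 and 4173. The replicate numbers do not pair the libraries: deviations of same-numbered libraries correlated at -0.063 to 0.076, and 1 of the 9 correlated best with its own number at both other times. With the replicate block the F3H copy ratio no longer passed 0.05, at p = 0.0556 in the exact permutation test within numbers, whose smallest p is 0.0278. Its difference of -1.22 log2 units between 24 h and 0 h cannot move under a block in this balanced design. The UFGT copy ratio held under its 12 alternatives, with p from 0.00357 to 0.0278.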
